A study of Homo sapiens with 6 samples.

Results

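The genes described here are those of the human proteasome, measured by RNA-seq in A549, a cell line from a lung adenocarcinoma. They are the protein-coding genes whose symbol begins with *PSMA*, *PSMB*, *PSMC*, *PSMD* or *PSME* and a digit, without 2 *PSMB* genes that were not analysed here, and they number 42 of the 58302 genes in the deposited table. Of these, 8 encode alpha-ring and 9 beta-ring subunits of the core particle, 6 the ATPases and 11 the other subunits of the regulatory particle, 3 chaperones that assemble its base, and 4 other activators. The remaining gene, *PSMC3IP*, matches by its name only and encodes a recombination factor, not a subunit.

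The treated cells were given S541 (compound 5n) at 1.0 µM over 48 h, and the control cells were given the solvent DMSO, with 3 libraries in each group. The title of the series concerns pyrimidinyl carbazole compounds that disturb mitochondrial homeostasis. Both groups are the same unmodified cell line, so the data describe 1 line at 1 dose and 1 time. Nothing in the labels tells whether a replicate was its own culture, so the spread behind each p-value is that of these libraries and may be technical. In bulk RNA a change in RNA per cell and a change in the makeup of the culture cannot be told apart.

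The proteasome is the protease complex that degrades proteins marked with ubiquitin in the cytosol and nucleus. Its barrel-shaped core holds the proteolytic sites on the inner beta rings, the outer alpha rings gate the entry, and the regulatory particle binds ubiquitin chains, removes them and unfolds the substrate with a ring of ATPases. Subunit genes are transcribed at matched levels in many cell types, and the factor NFE2L1 raises their transcription together when proteasome activity falls short.

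The libraries held 13956648, 15794403 and 15644627 counts in S541 replicates 1 to 3, and 14927663, 17044139 and 16592011 counts in DMSO replicates 1 to 3. In a principal component analysis of log2 CPM (counts scaled to the library size), the groups separated on component 1 (38.9% of the variance). S541 replicate 3 and DMSO replicate 2 stood apart from the other 4 libraries on component 2 (21.4%), at −20.5 and −34.4 against values from 7.95 to 22.9. Fold changes of members that moved by over 1.5 times without one of them are given with and without it, except where they lay close to 0. The keratin genes *KRT8* and *KRT18*, epithelial markers, were abundant in all 6 libraries, at 1225 to 1340 CPM and 609 to 702 CPM in S541 libraries and at 1657 to 1871 CPM and 952 to 1040 CPM in DMSO libraries. Both fell (adjusted p = 0.0124 and 0.00750 by edgeR). The other epithelial markers were low, with means in S541 and DMSO libraries of 10.3 and 8.85 CPM for *EPCAM*, 0.57 and 1.08 CPM for *CDH1*, and 1.17 and 0.35 CPM for *KRT19*, and none of these passed the threshold. The lung lineage markers *NKX2-1* and *SFTPC* did not exceed 0.5 CPM in any library. Of 5 retinal markers, looked at because the design text of the series calls the profiles retinal, *SAG* and *CRX* had 0 counts, and the 5 summed to 0.42 to 0.65 CPM in S541 libraries and 0.60 to 1.44 CPM in DMSO libraries. Markers of leukocytes summed to 1.16 to 1.81 CPM in S541 libraries and 1.08 to 2.58 CPM in DMSO libraries, those of fibroblasts to 3.86 to 4.78 CPM and 6.65 to 9.36 CPM, and those of endothelium to 7.92 to 13.8 CPM and 11.3 to 11.5 CPM.

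Proteasome transcripts differed little between S541 and DMSO cells. Of the 42 genes, *PSMA8*, known for its expression in testis, and *PSMB11*, known for its expression in thymus, had 0 counts in all 6 libraries, and the other 40 were abundant enough to be tested, with group means from 25.2 to 604 CPM. Among the 40, only *PSMC4* rose past the threshold and none fell (edgeR quasi-likelihood test, Benjamini-Hochberg adjusted p under 0.05 over all 15847 genes tested). Of all tested genes 4.02% rose and 4.17% fell, or 8.19% together, so the count among proteasome genes was near the background. At an unadjusted p under 0.05, 6 of the 40 were higher and 0 were lower, against 12.4% of all tested genes higher and 12.4% lower. The 6 were *PSMA2*, *PSMC1*, *PSMC4*, *PSMD2*, *PSMD12* and *PSMD14*.

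The direction of the small differences was uneven. The log2 fold change of S541 over DMSO was above 0 for 32 of the 40 genes, against 49.8% of all tested genes. Its median was 0.14 against −0.00 over all tested genes. Without *PSMC3IP*, whose own value was 0.09, it was above 0 for 31 of 39 genes, with a median of 0.15. Over the 40 genes the log2 fold change ranged from −0.13 in *PSMD11* to 0.37 in *PSME3*, with standard errors (SE) from 0.08 to 0.28. In 39 of the 40 genes the whole 95% interval of the log2 fold change lay between −1 and 1, and the upper limit of *PSME3*, at 1.00, lay at that limit. The S541 libraries lay wholly above the DMSO libraries in 9 genes and wholly below them in 1, and overlapped in 30; over all tested genes 15.9% were wholly above and 15.2% wholly below.

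**Figure D1:**
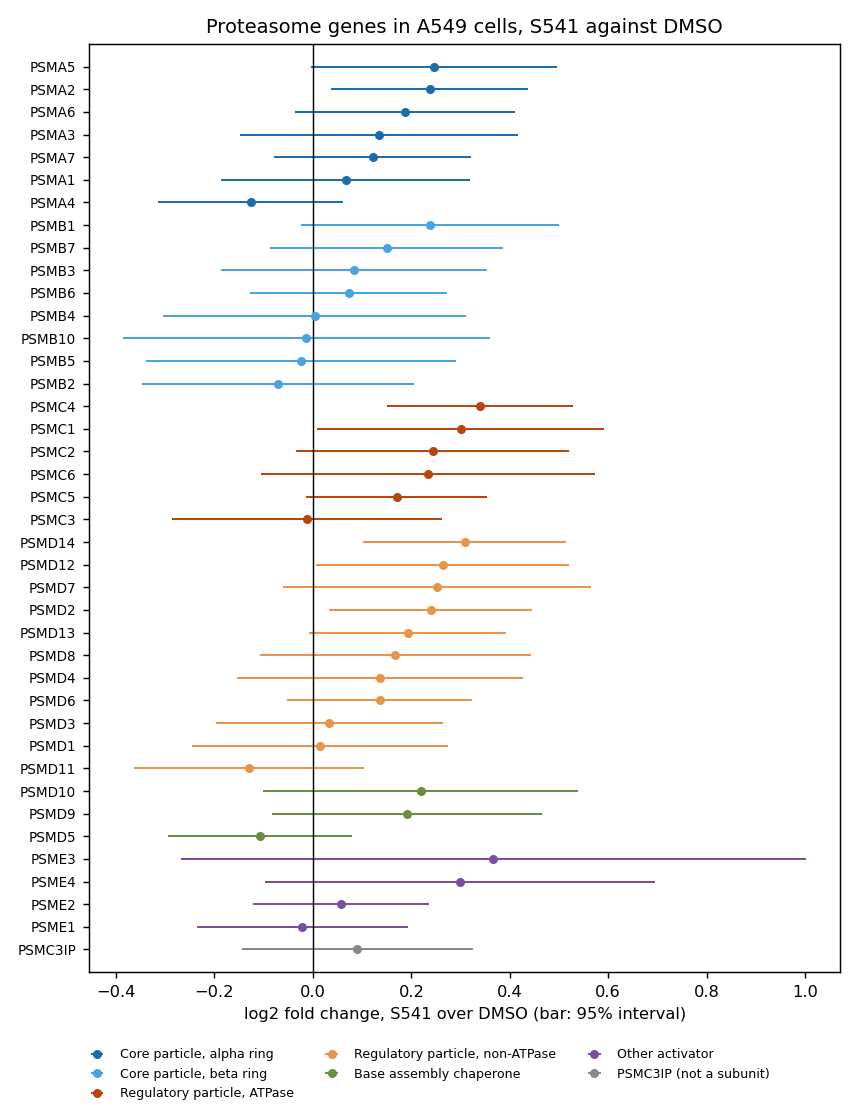
The log2 fold change of S541 over DMSO (horizontal axis) is plotted for each of the 40 tested genes (vertical axis), grouped and coloured by role, as a point with its 95% interval. Of the points, 32 lie right of 0 and 8 left, and all stay between −0.13 and 0.37.

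The excess was unequal between libraries. Taken per library against the DMSO mean, the median log2 level of the 40 genes was 0.04, 0.14 and 0.22 in S541 replicates 1 to 3, against 0.00, 0.06 and −0.05 in DMSO replicates 1 to 3. S541 replicate 1 therefore lay below DMSO replicate 2 in this measure, and the groups overlapped. The same median over all genes was within 0.01 of 0 in each library. The highest of the 6 libraries was S541 replicate 2 in 14 genes, S541 replicate 3 in 15 and DMSO replicate 2 in 9, and the lowest was DMSO replicate 3 in 16. The summed level of the 42 genes was 6884, 7483 and 7730 CPM in S541 libraries, against 6729, 7139 and 6522 CPM in DMSO libraries, or 7366 ± 435 and 6797 ± 314 CPM (SD, n = 3 each), and the groups overlapped. These genes took 0.704, 0.757 and 0.765% of the counts in S541 libraries and 0.668, 0.698 and 0.650% in DMSO libraries.

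Per kilobase of merged exon, the members differed widely in level. *PSMA7*, an alpha-ring subunit, averaged 345 CPM per kilobase in S541 cells and 317 in DMSO cells, where it was the most abundant of the 40. *PSMC1* averaged 5.03 CPM per kilobase in S541 cells and 4.08 in DMSO cells, where it was the least abundant by its own counts. Its level and rank are uncertain, because 80.5% of the counts of *PSMC1* and its processed pseudogene *PSMC1P1* together were given to the pseudogene. The median over the 40 in DMSO cells was 37.7. The medians by role in DMSO cells were 89.9 CPM per kilobase for the beta ring, 39.1 for the ATPases, 36.8 for the alpha ring, 34.7 for the non-ATPase subunits, 25.6 for the activators and 20.3 for the base chaperones. These levels divide by all exons annotated to a gene, so genes with long rare exons appear lower than their main transcript.

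Of the alpha-ring genes, which form the outer gate of the core, 0 of 7 tested passed the threshold, and the log2 fold change was above 0 in 6, with a median of 0.13. The largest was that of *PSMA5*, at chr1:109399031-109426427 on the minus strand in hg38. *PSMA5* measured 240, 303 and 307 CPM in S541 libraries, against 239, 247 and 230 CPM in DMSO libraries. S541 replicates 2 and 3 were high while replicate 1 lay among the DMSO libraries, and the log2 fold change was 0.25 (SE 0.11, adjusted p = 0.210 by edgeR). *PSMA2* measured 210, 249 and 234 CPM in S541 libraries, against 201, 194 and 194 CPM in DMSO libraries. The groups did not overlap, but the difference missed the threshold (log2 fold change 0.24, SE 0.09, adjusted p = 0.140 by edgeR), and 34.6% of its exon bases also belong to other genes. *PSMA4* ran the other way and was the only member whose S541 libraries all lay below the DMSO libraries. It measured 217, 231 and 217 CPM in S541 libraries, against 259, 233 and 233 CPM in DMSO libraries, and the log2 fold change was −0.13 (SE 0.08, adjusted p = 0.388 by edgeR). *PSMA1*, *PSMA3*, *PSMA6* and *PSMA7* had log2 fold changes from 0.07 to 0.19, and their libraries overlapped. That of *PSMA3* was 0.13, and 0.05 without DMSO replicate 2, and that of *PSMA7* was 0.12, and 0.07 without S541 replicate 3.

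The beta-ring genes had the smallest median log2 fold change of the 6 roles, a ranking that was not tested. Of the 8 tested, 0 passed the threshold, the libraries overlapped in all 8, and the log2 fold change was above 0 in 5, with a median of 0.04. *PSMB5*, which carries the chymotrypsin-like site that proteasome inhibitor drugs block, measured 128, 145 and 172 CPM in S541 libraries, against 134, 173 and 146 CPM in DMSO libraries. Its highest value came from DMSO replicate 2 and its lowest from S541 replicate 1, and the log2 fold change was −0.02 with a 95% interval from −0.34 to 0.29. *PSMB6* and *PSMB7*, with the caspase-like and trypsin-like sites, had log2 fold changes of 0.07 (95% interval −0.13 to 0.27) and 0.15 (−0.09 to 0.39). The value of *PSMB7* was 0.08 without S541 replicate 3 and 0.23 without DMSO replicate 2. *PSMB10*, the trypsin-like subunit of the immunoproteasome, measured 26.6, 26.0 and 33.9 CPM in S541 libraries, against 28.2, 34.5 and 24.6 CPM in DMSO libraries. Its log2 fold change was −0.01 (95% interval −0.39 to 0.36), and 34.8% of its exon bases also belong to another gene on the same strand.

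The extremes of the beta ring were *PSMB1* and *PSMB2*, both without proteolytic activity. *PSMB1* measured 212, 217 and 253 CPM in S541 libraries, against 172, 217 and 189 CPM in DMSO libraries, and the log2 fold change was 0.24 (SE 0.11, adjusted p = 0.242 by edgeR). *PSMB2* measured 245, 328 and 279 CPM in S541 libraries, against 281, 325 and 289 CPM in DMSO libraries, and the log2 fold change was −0.07 (SE 0.12, adjusted p = 0.760 by edgeR). Neither separated the groups. In *PSMB1*, S541 replicate 1 lay below DMSO replicate 2. In *PSMB2*, S541 replicates 1 and 3 lay below all DMSO libraries and S541 replicate 2 above them. All 8 beta-ring genes were higher in DMSO replicate 2 than in the mean of the other DMSO libraries, by 0.09 to 0.40 on the log2 scale. Without that library the log2 fold change of *PSMB4*, another structural beta subunit, was 0.15, against 0.00 with it, and those of *PSMB5* and *PSMB10* turned above 0. The log2 fold change of *PSMB1* was 0.16 without S541 replicate 3. The sign of *PSMB5* and *PSMB10* also turned without S541 replicate 1 or 2, and when counts were scaled by library totals only.

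The ATPases, which form the ring that unfolds substrates, included the only member called. *PSMC4*, one of the 6 ATPases, lies at chr19:39971005-39981441 on the plus strand in hg38, and none of its exon bases belong to another annotated gene. It measured 186, 199 and 207 CPM in S541 libraries, against 155, 164 and 150 CPM in DMSO libraries. Every S541 library was above every DMSO library, with means of 197 ± 10.7 and 156 ± 7.04 CPM (SD, n = 3 each). The log2 fold change was 0.34 (SE 0.08, 95% interval 0.15 to 0.53, adjusted p = 0.0443 by edgeR). The value sat close to the threshold: without DMSO replicate 1 or 3, or without any one S541 replicate, the adjusted p lay between 0.0851 and 0.145, and without DMSO replicate 2 it was 0.0410. The log2 fold change stayed between 0.30 and 0.39 in those fits, and in the authors' deposited table *PSMC4* had a p-value of 0.0165 and a Q-value of 0.196.

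*PSMC1*, *PSMC2*, *PSMC5* and *PSMC6* had log2 fold changes of 0.30, 0.24, 0.17 and 0.23, and none passed the threshold. Without S541 replicate 3 the value of *PSMC1* was 0.20, and without DMSO replicate 2 those of *PSMC2* and *PSMC6* were both 0.14. The groups did not overlap in *PSMC5*, at 186, 190 and 209 CPM in S541 libraries against 176, 173 and 172 CPM in DMSO libraries, nor in *PSMC1*. *PSMC1* measured 26.9, 30.9 and 35.2 CPM in S541 libraries, against 26.4, 23.4 and 25.7 CPM in DMSO libraries (adjusted p = 0.190 by edgeR). The count of *PSMC1* is uncertain, because 80.5% of the counts of this gene and its processed pseudogene *PSMC1P1* together were given to the pseudogene, and 75.8% of its exon bases also belong to *NRDE2* on the other strand. With the counts of the pseudogene added, the log2 fold change was 0.26 (adjusted p = 0.133 by edgeR). Of 32 pseudogene rows named for members, this was the only one with over 5% of the counts of its pair. *PSMC3* was the ATPase with the smallest fold change, at 414, 403 and 492 CPM in S541 libraries against 391, 499 and 431 CPM in DMSO libraries. Its log2 fold change was −0.01 (SE 0.12), and the sign turned without DMSO replicate 2, without S541 replicate 1 or 2, and with library totals only.

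**Figure D2:**
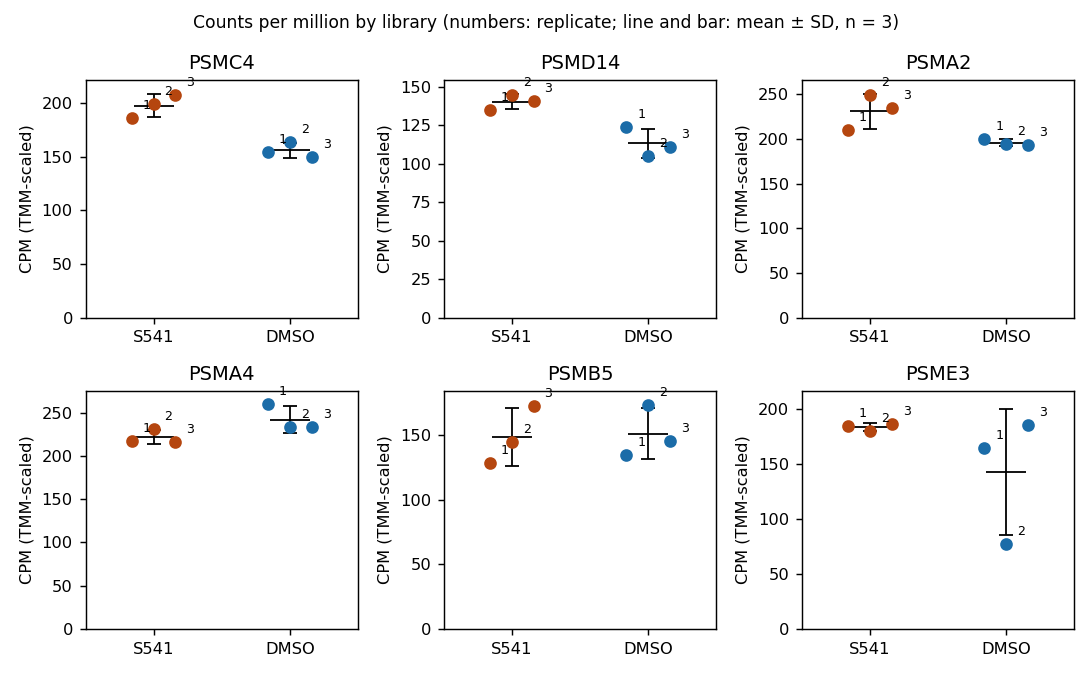
Each panel plots the TMM-scaled CPM of 1 gene by library, S541 left and DMSO right, with replicate numbers beside the points and the mean ± SD (n = 3). *PSMC4*, *PSMD14* and *PSMA2* show separated groups with S541 higher, *PSMA4* shows separated groups with S541 lower, *PSMB5* overlaps, and *PSME3* holds 1 low DMSO library at 77.2 CPM.

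Of the 11 non-ATPase genes of the regulatory particle, 0 passed the threshold, 10 had a log2 fold change above 0, and the median was 0.17. *PSMD14*, the deubiquitinase that cuts ubiquitin chains from substrates, was the largest, and lies at chr2:161308038-161411717 on the plus strand in hg38. It measured 135, 145 and 141 CPM in S541 libraries, against 124, 105 and 111 CPM in DMSO libraries. The groups did not overlap, with means of 140 ± 4.93 and 113 ± 9.57 CPM (SD, n = 3 each), and the log2 fold change of 0.31 (SE 0.09) missed the threshold (adjusted p = 0.0754 by edgeR). In the authors' deposited table *PSMD14* and *PSMC4* were the 2 members with a p-value under 0.05, and 0 members had a Q-value under 0.05.

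*PSMD2*, a base scaffold that docks ubiquitin shuttle proteins, measured 293, 308 and 311 CPM in S541 libraries, against 242, 285 and 246 CPM in DMSO libraries. The groups did not overlap, and DMSO replicate 2 was the library nearest to S541. The log2 fold change was 0.24 (SE 0.09, adjusted p = 0.145 by edgeR), and it was 0.32 (adjusted p = 0.0486) without DMSO replicate 2, which was the only setting that added a called member. *PSMD4*, a ubiquitin receptor, measured 215, 215 and 234 CPM in S541 libraries, against 186, 241 and 176 CPM in DMSO libraries. Its highest library was DMSO replicate 2, and the log2 fold change of 0.14 became 0.29 (adjusted p = 0.0810 by edgeR) without it.

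*PSMD6* and *PSMD13*, subunits of the lid, were the other members of this group whose libraries did not overlap, with log2 fold changes of 0.14 (SE 0.08) and 0.19 (SE 0.09). The lid subunit *PSMD12* differed by 0.26 on the log2 scale (SE 0.11, adjusted p = 0.191 by edgeR), with overlapping libraries. *PSMD11*, another lid subunit, was the lowest of the 40 members by fold change. It measured 205, 224 and 257 CPM in S541 libraries, against 254, 260 and 237 CPM in DMSO libraries, and the log2 fold change was −0.13 (SE 0.10, adjusted p = 0.483 by edgeR), and the groups overlapped through S541 replicate 3, without which the log2 fold change was −0.22. *PSMD1*, *PSMD3*, *PSMD7* and *PSMD8* had log2 fold changes from 0.01 to 0.25, with overlapping libraries. That of *PSMD8* was 0.17, with 0.10 without S541 replicate 3 and 0.28 without DMSO replicate 2.

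The chaperones that assemble the base ring were 3, and 0 passed the threshold. *PSMD10*, also called gankyrin, measured 51.0, 54.4 and 69.1 CPM in S541 libraries, against 54.3, 51.2 and 44.5 CPM in DMSO libraries. Only S541 replicate 3 stood clearly above the rest, and the log2 fold change was 0.22 (SE 0.14, adjusted p = 0.380 by edgeR), or 0.08 (adjusted p = 0.763) without that library. *PSMD5* measured 89.6, 99.9 and 92.0 CPM in S541 libraries, against 99.4, 102 and 101 CPM in DMSO libraries, and the log2 fold change was −0.11 (SE 0.08, adjusted p = 0.466 by edgeR). *PSMD9* had a log2 fold change of 0.19 (SE 0.12) with overlapping libraries.

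The other activators cap the core in place of the regulatory particle, and 0 of 4 passed the threshold. *PSME3*, the nuclear activator PA28-gamma, measured 184, 179 and 186 CPM in S541 libraries, against 165, 77.2 and 185 CPM in DMSO libraries. The S541 libraries were close together, and only DMSO replicate 2 lay far from the rest: the log2 fold change was 0.37 (SE 0.28, adjusted p = 0.464 by edgeR), and 0.07 (adjusted p = 0.665) without it. *PSME4*, the activator known in mice for a part in spermatogenesis, measured 149, 184 and 129 CPM in S541 libraries, against 146, 100 and 129 CPM in DMSO libraries. Its log2 fold change of 0.30 (SE 0.17) became 0.16 without DMSO replicate 2. *PSME1* and *PSME2*, the interferon-inducible subunits of one activator, had log2 fold changes of −0.02 (95% interval −0.24 to 0.19) and 0.06 (−0.12 to 0.24), and the libraries of *PSME2* did not overlap. *PSME1* measured 106, 107 and 108 CPM in S541 libraries, against 100, 121 and 105 CPM in DMSO libraries, and its sign turned without DMSO replicate 2 and with library totals only.

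Summed by role, the ATPase genes reached 1049, 1098 and 1184 CPM in S541 libraries, against 992, 1042 and 986 CPM in DMSO libraries, and the groups did not overlap. The activator genes reached 525, 561 and 511 CPM in S541 libraries, against 493, 384 and 505 CPM in DMSO libraries, also without overlap, and DMSO replicate 2 lay far below the rest. The other 4 role sums overlapped. The beta-ring genes reached 1672, 1858 and 2012 CPM in S541 libraries, against 1679, 1984 and 1646 CPM in DMSO libraries. These sums were not tested, and whether the roles differ in response was not tested.

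**Figure D3:**
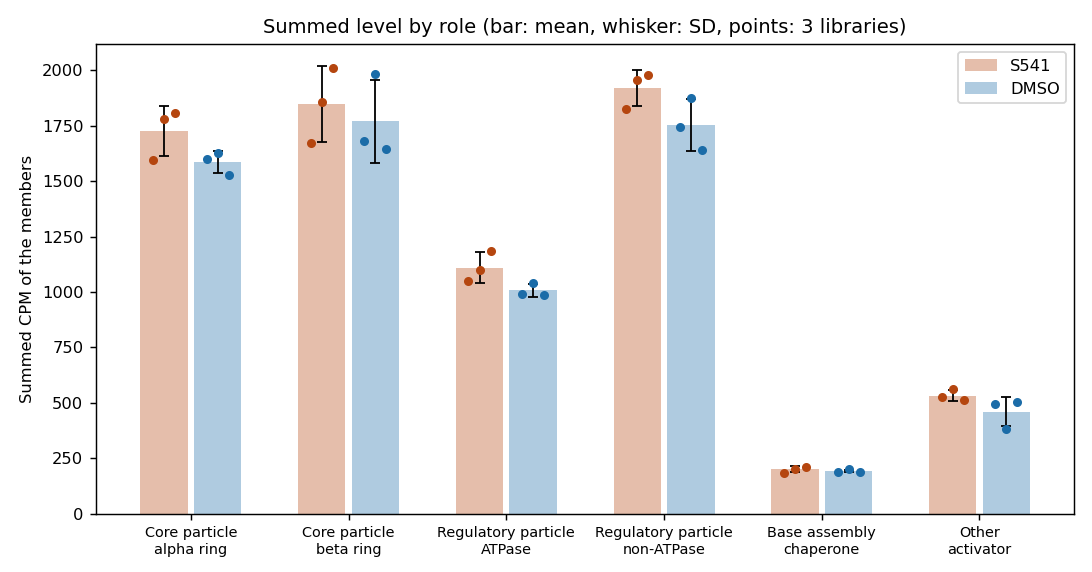
The summed CPM of the members of each role (vertical axis) is shown as a mean bar with SD whisker and 3 library points, S541 left of DMSO in each pair. The ATPase and activator points do not overlap between the groups, while the beta-ring sums span 1672 to 2012 CPM in S541 libraries and 1646 to 1984 CPM in DMSO libraries.

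S541 replicate 3 and DMSO replicate 2 were set side by side because both lay low on component 2. That component was computed over all tested genes, the members included, so a shared deviation follows in part from this choice. Set against the other libraries of their own groups, 28 of the 40 genes lay on the same side in both, 21 above and 7 below. The same count was not made over all tested genes, so it is not read as a trait of the members. Across the 40 genes the log2 deviations had a Pearson r of 0.50 and a Spearman rho of 0.58, and r was 0.63 over 39 genes without *PSME3*. Over all tested genes r was 0.20, but there each deviation was taken from the mean of its whole group. Those genes also had group means down to 0.0 CPM, against 25.2 CPM or more in the members, so the values of r are not directly comparable. The genes share libraries and are no independent replicates. The beta-ring genes were above in 7 of 8 cases in S541 replicate 3 and in 8 of 8 in DMSO replicate 2. The 26 members above 0 in DMSO replicate 2 had a median merged exon length of 2884 bases, against 5350 bases in the 14 below. Without both libraries, the median log2 fold change of the members was 0.11 and 0 members passed the threshold. The cause of these deviations was not tested.

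**Figure D4:**
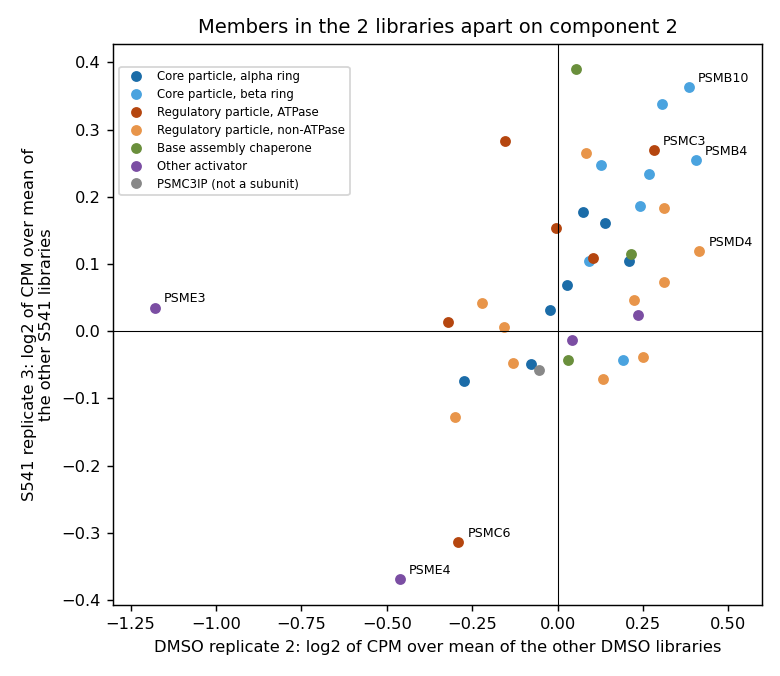
Each point is 1 tested gene, coloured by role, with its log2 CPM in S541 replicate 3 against the mean of the other S541 libraries (vertical axis) and in DMSO replicate 2 against the mean of the other DMSO libraries (horizontal axis). Of the 40 points, 28 lie in the upper right or lower left, with *PSME3* alone at −1.18 on the horizontal axis.

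Of 9 further proteasome genes, such as ubiquitin receptors and deubiquitinases, 0 passed the threshold, 2 were higher at an unadjusted p under 0.05, and S541 libraries lay wholly above in 4. Of all tested genes 8.19% passed the threshold, 12.4% were higher at that unadjusted p, and 15.9% lay wholly above. *ADRM1*, a ubiquitin receptor of the base, measured 418, 432 and 481 CPM in S541 libraries, against 344, 379 and 355 CPM in DMSO libraries. Every S541 library was higher, and the log2 fold change of 0.30 (SE 0.09) missed the threshold (adjusted p = 0.0698 by edgeR). For *TXNL1*, a thioredoxin-like protein bound to the regulatory particle, the log2 fold change was 0.34 (adjusted p = 0.0796 by edgeR), and its libraries did not overlap. *USP14*, a deubiquitinase, measured 149, 171 and 138 CPM in S541 libraries, against 160, 160 and 163 CPM in DMSO libraries, with overlap and a log2 fold change of −0.08 (adjusted p = 0.665 by edgeR).

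Of 5 factors that assemble the core, 1 rose and 0 fell, against 4.02% and 4.17% of all tested genes. *POMP*, the maturation protein that is degraded by each new core, measured 122, 132 and 127 CPM in S541 libraries, against 105, 96.4 and 94.7 CPM in DMSO libraries. The groups did not overlap, with means of 127 ± 5.23 and 98.7 ± 5.50 CPM (SD, n = 3 each) and the log2 fold change was 0.37 (SE 0.08, adjusted p = 0.0367 by edgeR). Without any one library the adjusted p was between 0.0581 and 0.129, and it was 0.0718 with no filter on low counts and 0.135 with replicate number as a block. The chaperones *PSMG1*, *PSMG2*, *PSMG3* and *PSMG4* had log2 fold changes from −0.12 to 0.38, none past the threshold.

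Of 9 genes known to control proteasome transcription, 1 rose and 0 fell, against 4.02% and 4.17% of all tested genes. *NGLY1*, the enzyme that strips sugars from NFE2L1 on its way out of the endoplasmic reticulum, measured 27.4, 26.6 and 28.2 CPM in S541 libraries, against 19.6, 17.2 and 18.4 CPM in DMSO libraries. The groups were well apart, and the log2 fold change was 0.58 (SE 0.11, adjusted p = 0.0194 by edgeR). Without DMSO replicate 3 or any one S541 replicate the adjusted p was between 0.0620 and 0.0750, and it was 0.0771 with replicate number as a block. *NFE2L1* itself measured 248, 225 and 193 CPM in S541 libraries, against 218, 189 and 217 CPM in DMSO libraries, with overlap, and the log2 fold change was 0.09 (SE 0.11, adjusted p = 0.668 by edgeR). *DDI2*, the protease that cleaves NFE2L1, and *VCP*, which extracts it from the membrane, had log2 fold changes of 0.27 (adjusted p = 0.301) and 0.03 (adjusted p = 0.868).

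The proteins of the NFE2L family bind antioxidant response elements, so the promoters of the members were searched for the core of that element, TGACNNNGC. RefSeq sequence (GRCh38.p14) was matched for 37 of the 42 members, and *PSMA7*, *PSMB1*, *PSMB6*, *PSMB7* and *PSMD4* were not among them. In the 250 bases before the start, on either strand, 8 of 37 held the motif (21.6%), against 11.03% of 27305 RefSeq promoters. CCAAT, the letters bound by the factor NF-Y, stood in 17 of 37 (45.9%) against 33.0%, and TATAAA in 5 of 37 (13.5%) against 11.1%. A match is a description of these letters and not of binding. In some members the window reached into annotated exons of the gene itself, and matches there were counted too. Among these were TGACNNNGC in *PSME2* and CCAAT in *PSMC5*, *PSMD14* and *PSME3*, where the window began in such an exon. The median log2 fold change was 0.07 in the 8 tested members with TGACNNNGC and 0.17 in the 27 tested members without it, and 0.17 in the 16 with CCAAT and 0.07 in the 19 without.

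The sequences below are shown because *PSMC4* was the only called member and held none of the 3 motifs, while *PSMB3*, *PSMD12* and *PSMD9* held TGACNNNGC. They run 5′ to 3′ up to the first annotated exon, with matches of TGACNNNGC or CCAAT on either strand in capitals. They lie at chr19:39970915-39971004 (plus strand, *PSMC4*), chr17:38752491-38752735 (plus strand, *PSMB3*), chr17:67366628-67366827 (minus strand, *PSMD12*) and chr12:121888540-121888730 (plus strand, *PSMD9*) in GRCh38.p14.
PSMC4: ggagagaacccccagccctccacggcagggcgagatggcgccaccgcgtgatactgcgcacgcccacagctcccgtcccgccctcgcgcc
PSMB3: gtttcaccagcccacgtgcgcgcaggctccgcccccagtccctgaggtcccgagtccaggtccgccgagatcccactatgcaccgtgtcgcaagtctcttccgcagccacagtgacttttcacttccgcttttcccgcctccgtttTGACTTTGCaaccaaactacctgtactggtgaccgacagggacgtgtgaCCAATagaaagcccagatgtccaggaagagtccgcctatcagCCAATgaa
PSMD12: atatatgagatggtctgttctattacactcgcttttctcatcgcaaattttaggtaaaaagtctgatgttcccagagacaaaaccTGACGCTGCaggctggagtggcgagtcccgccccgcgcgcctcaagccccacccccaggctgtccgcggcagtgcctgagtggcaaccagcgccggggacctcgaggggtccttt
PSMD9: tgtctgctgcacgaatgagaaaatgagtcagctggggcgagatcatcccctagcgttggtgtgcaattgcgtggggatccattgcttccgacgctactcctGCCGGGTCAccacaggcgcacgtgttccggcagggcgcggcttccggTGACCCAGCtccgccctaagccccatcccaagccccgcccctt
The log2 fold changes of these members were 0.34 for *PSMC4*, 0.08 for *PSMB3*, 0.26 for *PSMD12* and 0.19 for *PSMD9*. The other holders of TGACNNNGC, not printed, were *PSMD3* (0.03), *PSMD5* (−0.11), *PSME1* (−0.02), *PSME2* (0.06) and *PSME4* (0.30). In *PSMD9* the first of the matches in capitals reads on the opposite strand.

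Of 4 members whose start lies within 1000 bases of a divergent neighbour, *PSMD10* shares the shortest gap, 50 bases, with *ATG4A*, an autophagy protease, whose log2 fold change was 0.43 (adjusted p = 0.169 by edgeR). *PSMB1* and *TBP*, 961 bases apart, had log2 fold changes of 0.24 and 0.03, and *PSMA7* and *SS18L1*, 355 bases apart, 0.12 and 0.08. *PDE3B*, 88 bases from *PSMA1*, did not pass the filter on low counts. The starts in this paragraph are the outer ends of the GENCODE gene models. That of *PSMA1* lies at chr11:14643635, while the upstream edge of its RefSeq promoter window lay at chr11:14520636, inside the gene model. The gap of 88 bases therefore does not hold for the RefSeq start of *PSMA1*.

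Of 11 genes that supply ubiquitin or shuttle it to the proteasome, 1 rose and 0 fell, against 4.02% and 4.17% of all tested genes. *UBQLN1*, a shuttle that binds both ubiquitin and the regulatory particle, measured 199, 214 and 198 CPM in S541 libraries, against 159, 162 and 171 CPM in DMSO libraries. All S541 libraries were higher, the log2 fold change was 0.31 (SE 0.08, adjusted p = 0.0485 by edgeR), and without any one library the adjusted p was between 0.0712 and 0.154. It was also above the threshold with DESeq2 size factors (0.0514), with no filter on low counts (0.0981) and with replicate number as a block (0.160). Its relative *UBQLN2* measured 118, 117 and 109 CPM in S541 libraries, against 135, 141 and 142 CPM in DMSO libraries, and missed the threshold (log2 fold change −0.28, adjusted p = 0.0666 by edgeR). The polyubiquitin gene *UBB* measured 356, 523 and 372 CPM in S541 libraries, against 266, 314 and 197 CPM in DMSO libraries (log2 fold change 0.69, SE 0.20, adjusted p = 0.0761 by edgeR). Of 7 cofactors of the unfoldase VCP, 0 passed the threshold, against 8.19% of all tested genes. At an unadjusted p under 0.05, 0 of them differed, against 12.4% of all tested genes higher and 12.4% lower. The log2 fold changes of these cofactors ranged from −0.14 to 0.06. The 2 most abundant by the deposited FPKM were *NPLOC4*, at 239 ± 7.83 CPM in S541 libraries and 234 ± 9.14 CPM in DMSO libraries, and *UBXN4*, at 105 ± 13.2 CPM in S541 libraries and 116 ± 19.7 CPM in DMSO libraries (SD, n = 3 each).

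Of 9 genes of the interferon response and antigen presentation, which also use *PSMB10*, *PSME1* and *PSME2*, 0 rose and 1 fell. The shares over all tested genes were 4.02% and 4.17%. *TAPBP*, which loads peptides onto class I molecules, measured 97.5, 125 and 102 CPM in S541 libraries, against 163, 165 and 157 CPM in DMSO libraries. The groups were far apart, and the log2 fold change was −0.58 (SE 0.11, adjusted p = 0.0200 by edgeR). When replicate 1 or 3 of either group was left out, the adjusted p was between 0.0582 and 0.0796, and it was 0.0543 with replicate number as a block. *B2M*, the light chain of class I molecules, was at 561, 106 and 614 CPM in S541 libraries, against 574, 585 and 517 CPM in DMSO libraries, so S541 replicate 2 alone was low.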

How the data were processed

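RNA of A549 cells was measured in 3 S541 and 3 DMSO libraries. The whole-number counts that the authors deposited were used unchanged. The submitters' processing notes name hg38 and edgeR. How reads were aligned and counted, and whether by strand, is not given in the sources used. The deposited FPKM follow from the counts by gene lengths that match neither merged exons nor summed transcripts, so levels between genes are given as CPM per kilobase of merged exon (GENCODE release 29, whose loci matched 97.2% of the genes).

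The model was fitted in R 4.3.3 with edgeR 4.0.16 (filterByExpr, TMM scaling, group as the only term, glmQLFTest, 2-sided), and p-values were adjusted by Benjamini-Hochberg over all 15847 genes tested. A gene is called where the adjusted p is under 0.05. The common biological coefficient of variation was 0.163. CPM are TMM-scaled, and a mean ± SD is over 3 libraries. Each pair of libraries differed beyond sampling noise (chi-square per degree of freedom 11.3 or more).

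The authors' deposited comparison gave log2 fold changes, p-values and Q-values, which are quoted by name. Alternatives were other scalings, filters, tools (DESeq2 1.42.0, limma-voom from limma 3.58.1), a replicate term and leaving out libraries. The members and lists were chosen with earlier results of these data known. Named with full values are called members and the largest and smallest fold change in each role, and in other lists each called gene, the 2 most abundant where none passed, *NFE2L1* and *POMP*; other genes were named after their values were seen. Some genes of these lists are not reported here.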

Additional observations from a re-analysis of the deposited data

How the results depend on the processing

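Across 15 other settings and 2 more chosen after seeing the data, 671 of 680 fits of a single member kept the side of the threshold, 8 lost the call of *PSMC4* and 1 gained a call. Over all genes 1298 were called, against 753 with no filter on low counts, 392 with the replicate block and 349 to 1330 when 1 library was left out (375, 349 and 550 without S541 replicate 1, 2 and 3, and 628 and 398 without DMSO replicate 1 and 3). Members called higher were 1, against 0 with no filter, 0 with the replicate block, 0 to 2 when 1 library was left out, and 0 without S541 replicate 3 and DMSO replicate 2 together; members called lower were 0 throughout. DESeq2 and limma-voom also called 1 higher. The adjusted p of *PSMC4* was 0.0904 with no filter, 0.144 with the block and 0.0595 without both libraries, and 0.0219 to 0.0468 with the other scalings, filters and tools. The epithelial, retinal, leukocyte, fibroblast and endothelial markers are left out of the counts that follow. Genes of the other lists called higher were 3, against 1 with no filter and 1 with the block. Those called lower were 1, against 0 with the block. When 1 library was left out, 0 to 2 of these genes were called higher and 0 to 1 lower. Without S541 replicate 3 and DMSO replicate 2 together, 0 were called higher and 0 lower. The cause of the lost calls was not tested.

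The replicate numbers gave no pairing: correlations of same-numbered deviations were 0.10, −0.08 and −0.08, so the block is an alternative only. The median log2 fold change of the members was 0.11 to 0.18 in all settings, while that of all genes moved by at most 0.05. The sign held in every setting for 30 of the 40 members and turned in at least 1 for 10, all with a main value between −0.07 and 0.08.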
